A study of Rattus norvegicus with 12 samples.

Results

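Splicing factors and RNA-binding proteins were examined in whole lung of normal and diabetic rats, as the genes whose symbol in the array's annotation begins with Srsf, Sfrs, Hnrnp, Hnrp, Snrp, Sf3, Scaf or Rbm. Of the 10411 genes that a probe set of the Affymetrix RAE 230A array names alone, 68 met this rule, and each was represented by its probe set of highest mean log2 signal. A probe set is a group of short probes for 1 or more transcripts, and its MAS 5.0 signal is an intensity on a linear scale. The 68 genes comprised 11 SR proteins and their relatives, 16 hnRNP proteins, 8 snRNP proteins, 8 subunits of SF3 and 25 RBM proteins. A filter on low signals, applied without regard to group, kept 64 of them among 9520 probe sets.

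Each array measured the lung RNA of 1 male Wistar rat, with 5 normal and 7 diabetic animals. Diabetes had been induced by an intraperitoneal injection of streptozotocin, which kills pancreatic beta cells and so removes the source of insulin, at 8 weeks of age, and the normal animals had received buffer. All animals were 12 weeks old and fasted when their lungs were removed, after 4 weeks of diabetes in the injected group. The animals were not pooled. The arrays were of whole lung, so fewer cells of a type and less RNA per cell cannot be told apart. Type II cell markers were among the brightest signals, with Sftpc, the surfactant protein C gene, at 25682 ± 3016 (SD, n = 5) in normal and 24347 ± 2826 (SD, n = 7) in diabetic lung, while 0 of 4 measured heart muscle markers passed the filter. The 66 pairwise correlations between arrays (Pearson's r) ranged from 0.928 to 0.981, and diabetic animal 6 had the lowest mean r with its own group, at 0.948.

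Splicing removes introns from new transcripts in the spliceosome, a particle of small nuclear RNAs and many proteins. Sm proteins such as those of Snrpb, Snrpd2 and Snrpd3 form a ring on most of these RNAs, and SF3 places the U2 particle at the branch point of the intron. SR proteins mostly promote the use of nearby exons, hnRNP proteins often repress it and also package and carry transcripts, and the RBM proteins are a mixed group named only for their RNA-binding domain.

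No member passed an adjusted p of 0.05 in limma, in which 16 of the 9520 probe sets did (0.168%). At an unadjusted p under 0.05 there were 13 of 64 members (20.3%), against 16.4% of all probe sets tested. Of these 13, 7 were higher in diabetic lung, which 7.75% of all probe sets were, and 6 were lower, which 8.68% were. The median log2 difference between diabetic and normal lung was -0.02 over the members and -0.01 over all probe sets. The difference was above 0 for 31 members and below 0 for 33. It was smaller than 0.2 on the log2 scale in either direction for 51 members (79.7%), against 75.2% of all probe sets. On the brightest probe set, the 95% confidence interval lay within 1.5-fold in both directions for 61 of the 64. Hnrnpab, Hnrnph3 and Rbm7 were the exceptions. Intervals on other kept probe sets of Scaf11, Sf3a1 and Srsf1 also reached beyond 1.5-fold. In 1 member, Rbms1, every diabetic animal lay above every normal animal, against 0.924% of all probe sets, and in 0 members did every diabetic animal lie below, against 1.11%. In either direction the share was 2.04% of all probe sets.

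**Figure D1:**
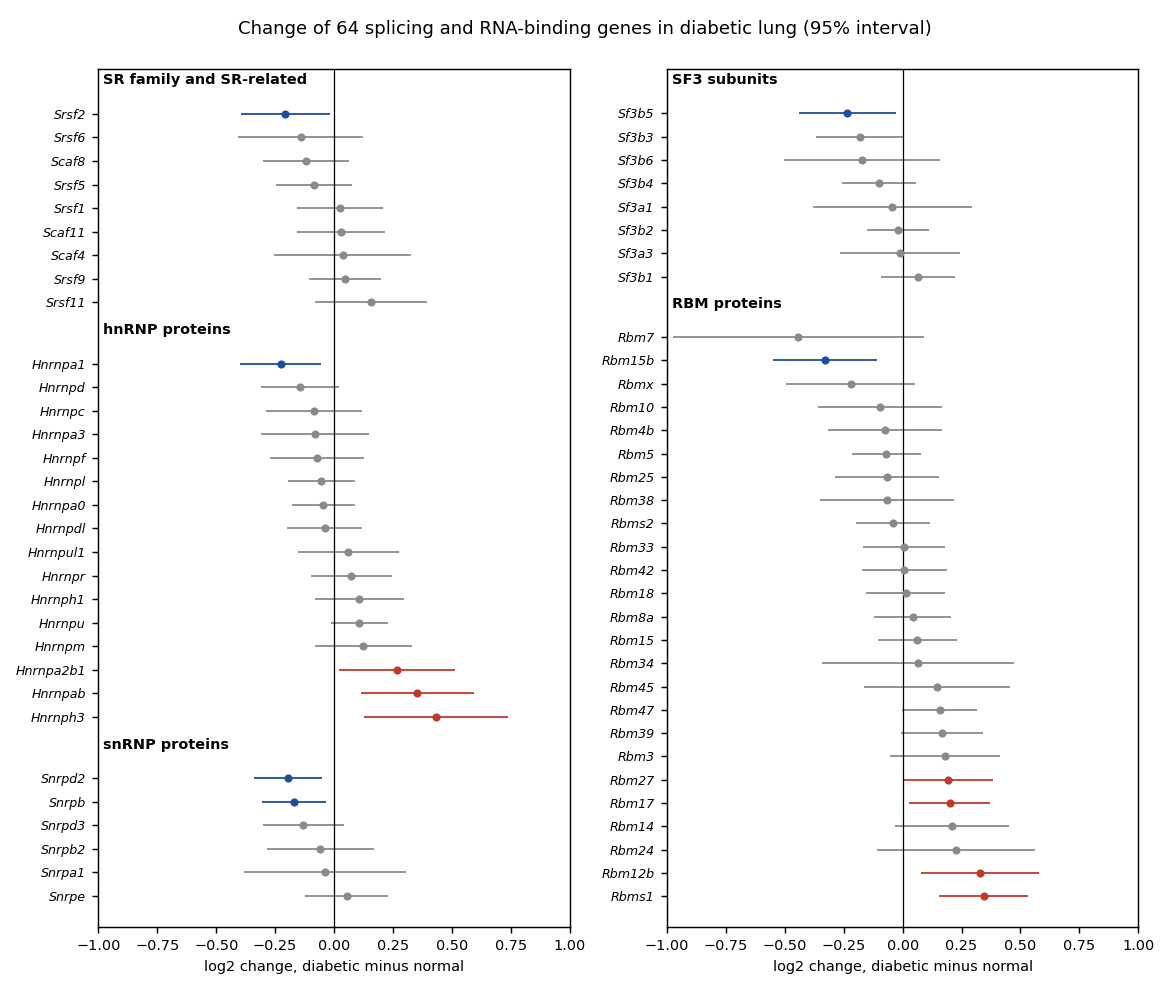
Log2 difference of signal between diabetic and normal lung (horizontal axis, diabetic minus normal) for the 64 genes tested, grouped by role, with 95% intervals from limma. Red marks the 7 genes higher and blue the 6 genes lower at an unadjusted p under 0.05, grey the others, and 0 of the 64 passed an adjusted p of 0.05.

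Rbms1, which encodes a protein that binds single-stranded nucleic acids and the ends of some transcripts, had the smallest adjusted p of the members. The signal of Rbms1 was 522.7, 647.3, 642.4, 644.4 and 664.4 in normal animals 1 to 5, and 716.7 at the lowest, 756.0 at the median and 914.7 at the highest in the diabetic animals. Normal animal 1 lay well below the other normal animals, and the groups did not overlap. The difference of Rbms1 was 0.34 on the log2 scale (SE 0.09, 95% interval 0.15 to 0.53, limma adjusted p = 0.0926). The start of this gene is shown with those of the Sm protein genes Snrpb and Snrpd2, which were lower at an unadjusted p under 0.05, as examples of the promoters of genes on either side of 0. Each runs 5′ to 3′ on the gene's strand from 250 bases before to 50 bases after the start in RefSeq (GRCr8), at chr3:65828964-65829263 on the minus strand for Rbms1, chr3:137832430-137832729 on the minus strand for Snrpb and chr1:87926159-87926458 on the plus strand for Snrpd2. Capitals mark matches on either strand to the GC box (GGGCGG), the CCAAT box (CCAAT) or the core letters of an ETS site (CCGGAAGT).
Rbms1: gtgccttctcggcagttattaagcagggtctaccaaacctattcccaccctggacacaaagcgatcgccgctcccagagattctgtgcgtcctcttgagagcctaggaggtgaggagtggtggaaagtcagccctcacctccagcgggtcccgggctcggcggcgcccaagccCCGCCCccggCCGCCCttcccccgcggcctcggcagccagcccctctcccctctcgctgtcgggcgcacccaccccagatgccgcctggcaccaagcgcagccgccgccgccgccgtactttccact
Snrpb: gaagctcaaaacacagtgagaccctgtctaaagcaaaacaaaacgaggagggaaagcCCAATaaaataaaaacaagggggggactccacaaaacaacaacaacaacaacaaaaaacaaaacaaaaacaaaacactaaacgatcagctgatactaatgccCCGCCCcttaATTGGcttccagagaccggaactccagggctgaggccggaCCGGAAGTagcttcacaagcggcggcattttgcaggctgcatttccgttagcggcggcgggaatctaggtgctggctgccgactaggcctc
Snrpd2: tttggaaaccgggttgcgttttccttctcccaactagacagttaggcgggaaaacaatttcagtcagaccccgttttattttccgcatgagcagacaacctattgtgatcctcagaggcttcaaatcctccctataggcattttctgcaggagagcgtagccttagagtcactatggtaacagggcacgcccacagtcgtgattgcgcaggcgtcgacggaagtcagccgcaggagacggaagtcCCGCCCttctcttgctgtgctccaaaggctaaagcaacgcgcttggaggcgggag
Rbms1 held 2 GC boxes, Snrpb 1 GC box, 2 CCAAT boxes and 1 ETS site, and Snrpd2 1 GC box. A promoter was found in the RefSeq table for 64 of the 68 members. The GC box was in 54.7% of these 64 and in 34.9% of all 27457 promoters of the table, the CCAAT box in 53.1% and 37.7%, and the ETS site in 10.9% and 4.01%. The cAMP response element TGACGTCA was in 1.56% and 1.91%, the E-box CACGTG in 7.81% and 6.65%, the nuclear receptor half-site letters AGGTCA in 9.38% and 15.7%, and TATAAA in 9.38% and 14.3%. The median GC content was 61.5% in the members and 52.3% in all promoters of the table. These shares describe the letters of the window alone.

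Of the SR family, 9 of 11 members were tested. Srsf2, an SR protein that binds exonic enhancers, was the single one with an unadjusted p under 0.05, and the median difference over the 9 was 0.03. Such a p was found for 16.4% of all probe sets tested. The Srsf2 signal was 3471.8, 2818.0, 3008.4, 3696.9 and 3357.8 in normal animals 1 to 5, and 2252.2 at the lowest, 2919.3 at the median and 3116.0 at the highest in the diabetic animals. Diabetic animal 3 was far below the others of its group, and the ranges overlapped. The difference was -0.21 (SE 0.09, limma adjusted p = 0.264), and that of the second probe set of Srsf2 was -0.01 (adjusted p = 0.966). Srsf11 differed by 0.16 (adjusted p = 0.514) and Scaf8, whose protein binds the tail of RNA polymerase II, by -0.12 (adjusted p = 0.509). The difference of Srsf1, the classical SR protein ASF/SF2, was 0.03 (adjusted p = 0.911). Srsf5, Srsf6, Srsf9 and Scaf4 lay between -0.14 and 0.04.

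Scaf11, whose SR-related protein is linked to the spliceosome, was measured by 3 probe sets with different values. On the brightest, Scaf11 was 641.9, 503.4, 542.4, 516.0 and 563.9 in normal animals 1 to 5, and 466.7 at the lowest, 578.2 at the median and 623.4 at the highest in the diabetic animals, so the groups overlapped. Its difference was 0.03 (95% interval -0.16 to 0.22, limma adjusted p = 0.893). On the second probe set Scaf11 was 408.7, 379.6, 452.2, 374.8 and 416.4 in normal animals, and 496.0, 544.7 and 679.1 at the lowest, median and highest in diabetic animals. On this probe set all 7 diabetic animals lay above all 5 normal animals. The difference was 0.48 (SE 0.09, 95% interval 0.28 to 0.67, adjusted p = 0.0540), and it ranked 19 of 9520 by p. Over 24 settings of the analysis this difference was 0.33 to 0.51 with an adjusted p of 0.0151 to 0.220, under 0.05 in 7 of them, among them those without diabetic animal 5 (0.0407) and without diabetic animal 6 (0.0313). On the third probe set Scaf11 was 525.3, 448.8, 534.8, 456.3 and 650.2 in normal animals, and 402.0, 435.4 and 574.5 at the lowest, median and highest in diabetic animals. The ranges overlapped there, and the difference was -0.16 (adjusted p = 0.517). The transcripts that each of the 3 probe sets detects were not examined, and the second was set apart here after its values were seen.

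**Figure D2:**
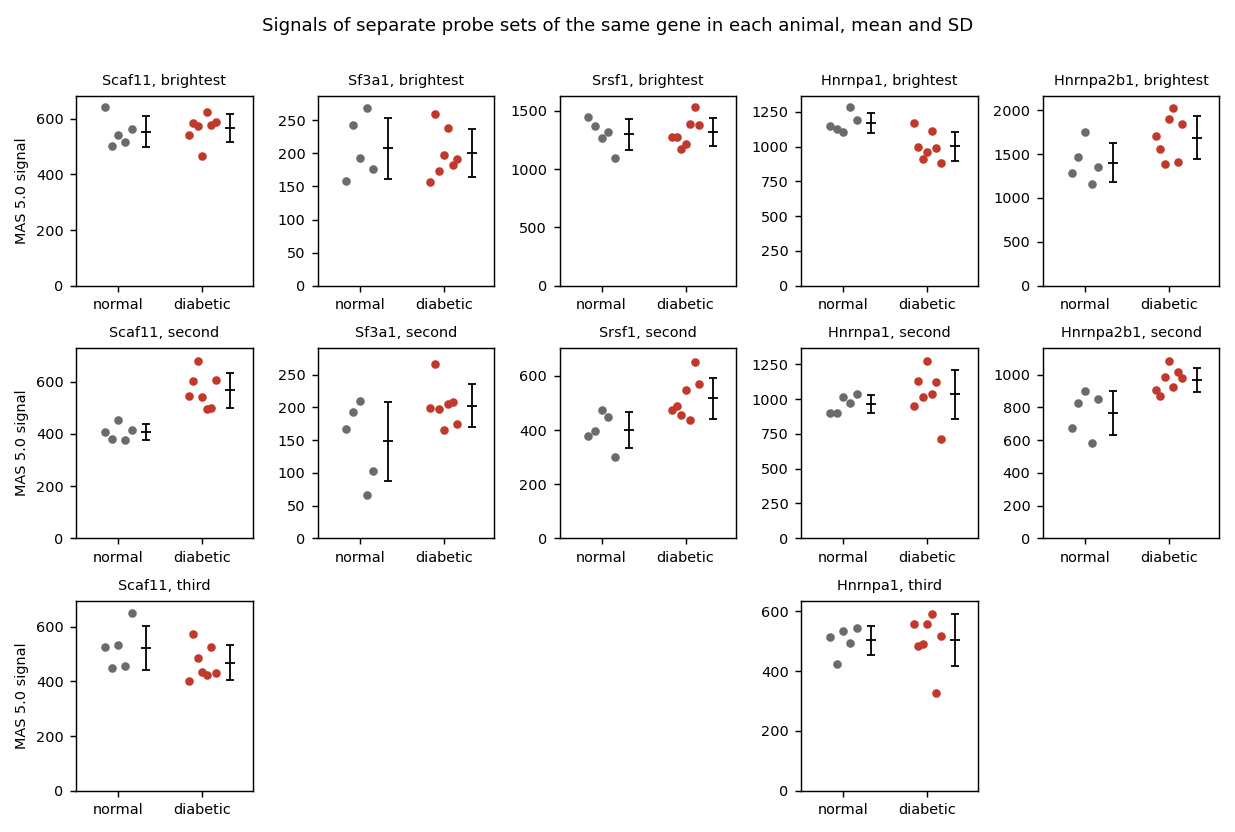
MAS 5.0 signal (vertical axis, linear) in each normal (grey) and diabetic (red) animal for the probe sets of Scaf11, Sf3a1, Srsf1, Hnrnpa1 and Hnrnpa2b1, ordered from the brightest. Each point is 1 animal, bars are mean and SD, and the second probe set of Scaf11 is the one panel in which the 2 groups do not overlap.

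Srsf1 and Sf3a1 also had probe sets with unequal differences. The second probe set of Srsf1 was 379.3, 395.3, 473.5, 446.5 and 300.7 in normal animals and 436.1 at the lowest, 489.8 at the median and 651.7 at the highest in diabetic animals. It differed by 0.38 (SE 0.12, adjusted p = 0.157), with overlapping ranges. Among the 14 members with more than 1 kept probe set, all probe sets shared a sign in 8 and differed in sign in 6. The probe sets of Sf3b1 (0.07 and 0.07) and Srsf6 (-0.14 and -0.14) were nearly equal, and those of Scaf11 and Sf3a1 were the farthest apart, by 0.63 and 0.61.

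The 16 hnRNP members numbered 3 higher and 1 lower below an unadjusted p of 0.05 and had a median difference of 0.01. At that p 7.75% of all probe sets were higher and 8.68% lower. Hnrnpab encodes a protein that binds AU-rich and single-stranded nucleic acid. The Hnrnpab signal was 1930.0, 2744.3, 2595.8, 2251.4 and 2576.5 in normal animals 1 to 5, and 2460.3 at the lowest, 3096.8 at the median and 3755.3 at the highest in diabetic animals. Normal animal 1 was the lowest, 5 of 7 diabetic animals lay above all the normal animals, and the groups overlapped. The difference was 0.35 (SE 0.11, limma adjusted p = 0.147). With a covariate for the GAPDH ratio (signal of its 3′ control probes over that of its 5′ ones) the difference of Hnrnpab was 0.01. That ratio was 1.23 to 1.44 in normal and 1.10 to 1.30 in diabetic arrays. It moved with the groups, so this fit cannot fully separate the ratio from the group.

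Hnrnph3, whose protein belongs to the G-tract-binding H and F family, was 276.9, 358.4, 419.9, 247.0 and 444.6 in normal animals and 378.9, 482.9 and 516.9 at the lowest, median and highest in diabetic animals. Normal animals 3 and 5 reached into the diabetic range. The difference of Hnrnph3 was 0.43 (SE 0.14, adjusted p = 0.162), the widest upward among the members. Hnrnpa2b1, which encodes a carrier and splicing repressor of the A and B group, was 1288.9, 1461.3, 1754.3, 1157.0 and 1354.6 in normal animals and 1383.3, 1704.3 and 2020.4 in diabetic animals at the lowest, median and highest. Normal animal 3 was above 4 of the 7 diabetic animals. The difference of Hnrnpa2b1 was 0.27 (SE 0.12, adjusted p = 0.268), and that of its second probe set was 0.35 (SE 0.10, adjusted p = 0.130). With the GAPDH ratio as a covariate the brightest probe set differed by -0.14 (adjusted p = 0.627), so its direction was not kept in that setting. The same limit of that fit holds here.

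Hnrnpa1, a splicing repressor of the same family, was 1151.7, 1124.5, 1103.1, 1282.0 and 1190.0 in normal animals and 881.2, 993.5 and 1168.9 at the lowest, median and highest in diabetic animals. Diabetic animals 1 and 5 lay within the normal range, and the other 5 lay under it. The difference was -0.23 (SE 0.08, adjusted p = 0.189), while 0.08 (adjusted p = 0.762) and -0.01 (adjusted p = 0.971) were found on the other probe sets of Hnrnpa1. Hnrnpdl was near 0 at -0.04 (adjusted p = 0.825). The 3 kept probe sets of Hnrnpu differed by 0.02 to 0.25 and the 4 of Hnrnpa3 by -0.11 to 0.15.

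**Figure D3:**
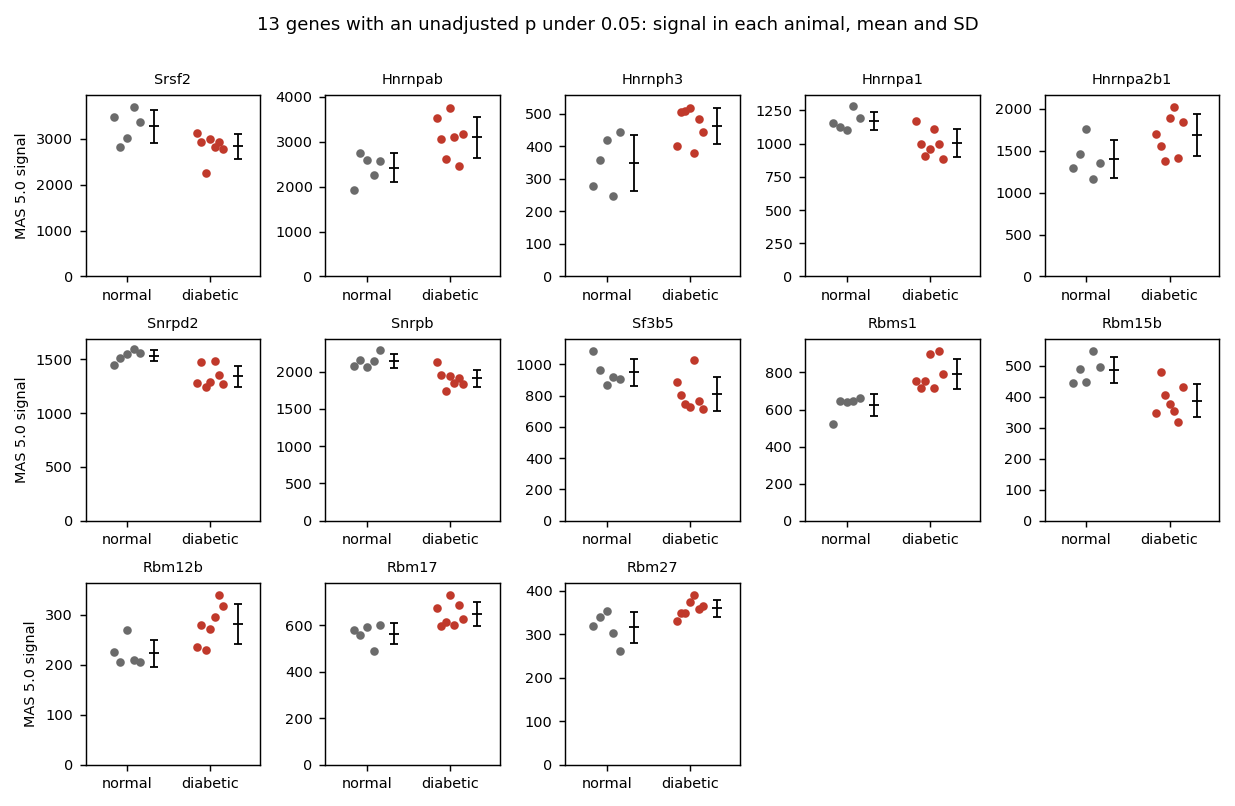
MAS 5.0 signal (vertical axis, linear, starting at 0) in each normal (grey) and diabetic (red) animal for the 13 genes with an unadjusted p under 0.05. Each point is 1 animal and bars show the mean and SD, and only for Rbms1 do the 2 groups not overlap.

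Of the snRNP proteins, 6 of 8 were tested, of which 2 were below and 0 above normal at an unadjusted p under 0.05. Of all probe sets 8.68% were lower and 7.75% higher at that p. The difference was below 0 for 5 of the 6 snRNP members, as it was for 52.8% of all probe sets, and the median of the 6 was -0.09. Snrpd2 was 1450.6, 1516.6, 1552.1, 1591.9 and 1561.1 in normal animals and 1244.9, 1287.3 and 1485.4 at the lowest, median and highest in diabetic animals. Diabetic animals 2 and 5 exceeded normal animal 1 and the other 5 diabetic animals lay below all normal animals. The difference of Snrpd2 was -0.19 (SE 0.07, limma adjusted p = 0.186). Snrpb was 2076.0, 2153.9, 2059.3, 2140.7 and 2293.9 in normal animals and 1744.8, 1915.7 and 2122.4 at the lowest, median and highest in diabetic animals. Diabetic animal 1 was the single diabetic animal inside the normal range. The difference of Snrpb was -0.17 (SE 0.06, adjusted p = 0.202). Snrpd3, a further Sm protein, differed by -0.13 (adjusted p = 0.440), and Snrpa1, a protein of the U2 particle, by -0.04 (adjusted p = 0.930). Snrpe, also an Sm protein, differed by 0.05 (adjusted p = 0.788).

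The 8 SF3 subunits had 1 lower and 0 higher at an unadjusted p under 0.05, with 7 of 8 below 0 and a median of -0.07. Of all probe sets 8.68% were lower and 7.75% higher at that p, and 52.8% lay below 0. Sf3b5, a small subunit of SF3b, was 1088.1, 966.0, 866.1, 922.3 and 904.7 in normal animals and 716.3, 766.3 and 1027.7 at the lowest, median and highest in diabetic animals. Diabetic animal 5 was above 4 of the normal animals, and 5 of the diabetic animals lay below all of them. The difference of Sf3b5 was -0.23 (SE 0.10, limma adjusted p = 0.244). Sf3b3 differed by -0.18 (adjusted p = 0.321), Sf3b4 by -0.10 (adjusted p = 0.533) and Sf3a3 by -0.01 (adjusted p = 0.974). Sf3b1, the subunit that contacts the branch point, was the one above 0, at 0.07 (adjusted p = 0.693). The second probe set of Sf3a1 was 166.8, 193.3, 210.0, 66.7 and 102.8 in normal animals and 165.1, 199.5 and 266.7 at the lowest, median and highest in diabetic animals. Normal animals 4 and 5 were low there, and the difference was 0.56 (SE 0.24, adjusted p = 0.265), against -0.04 (adjusted p = 0.920) on the brightest probe set of Sf3a1.

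All 25 RBM members were tested, with 4 higher and 1 lower below an unadjusted p of 0.05, with 16 above 0 and a median of 0.04. Of all probe sets 7.75% were higher and 8.68% lower at that p, and 52.8% lay below 0. Rbm15b, a relative of the adaptor that guides the m6A methylation of RNA, was 444.2, 489.9, 446.5, 546.5 and 494.5 in normal animals and 319.2, 377.3 and 478.2 at the lowest, median and highest in diabetic animals. Diabetic animal 2 was the single diabetic animal inside the normal range. The difference of Rbm15b was -0.33 (SE 0.10, limma adjusted p = 0.143). Rbms1 and Rbm15b were the members that kept an unadjusted p under 0.05 in all 26 settings tried, with differences of 0.28 to 0.44 and -0.39 to -0.26 and adjusted p of 0.0750 to 0.257 and 0.0986 to 0.297.

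Rbm12b was 225.1, 206.2, 269.0, 209.4 and 206.2 in normal animals and 229.4, 280.3 and 338.7 at the lowest, median and highest in diabetic animals. Only normal animal 3 lay within the diabetic range, and the difference of Rbm12b was 0.33 (SE 0.12, adjusted p = 0.191). Rbm17, a factor of alternative splice site choice, was 577.1, 557.7, 590.4, 488.1 and 602.1 in normal animals and 597.6, 624.8 and 730.9 at the lowest, median and highest in diabetic animals. Normal animal 5 overlapped with the low end of the diabetic range, and the difference of Rbm17 was 0.20 (SE 0.08, adjusted p = 0.232). Rbm27 was 318.5, 339.8, 354.7, 304.1 and 262.8 in normal animals and 329.9, 358.9 and 391.8 at the lowest, median and highest in diabetic animals. The ranges overlapped, and the difference of Rbm27 was 0.19 (SE 0.09, adjusted p = 0.295).

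Rbm7, whose protein takes part in the decay of nuclear transcripts, had the widest difference downward at -0.44, with an SE of 0.25 and an adjusted p of 0.390, its normal values running from 234.8 to 540.3. Rbm3, a cold-inducible protein, differed by 0.18 (adjusted p = 0.434), and Rbm33 by 0.01 (adjusted p = 0.980). The 4 probe sets of Rbm39, a coactivator and splicing factor, differed by 0.01 to 0.17.

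**Figure D4:**
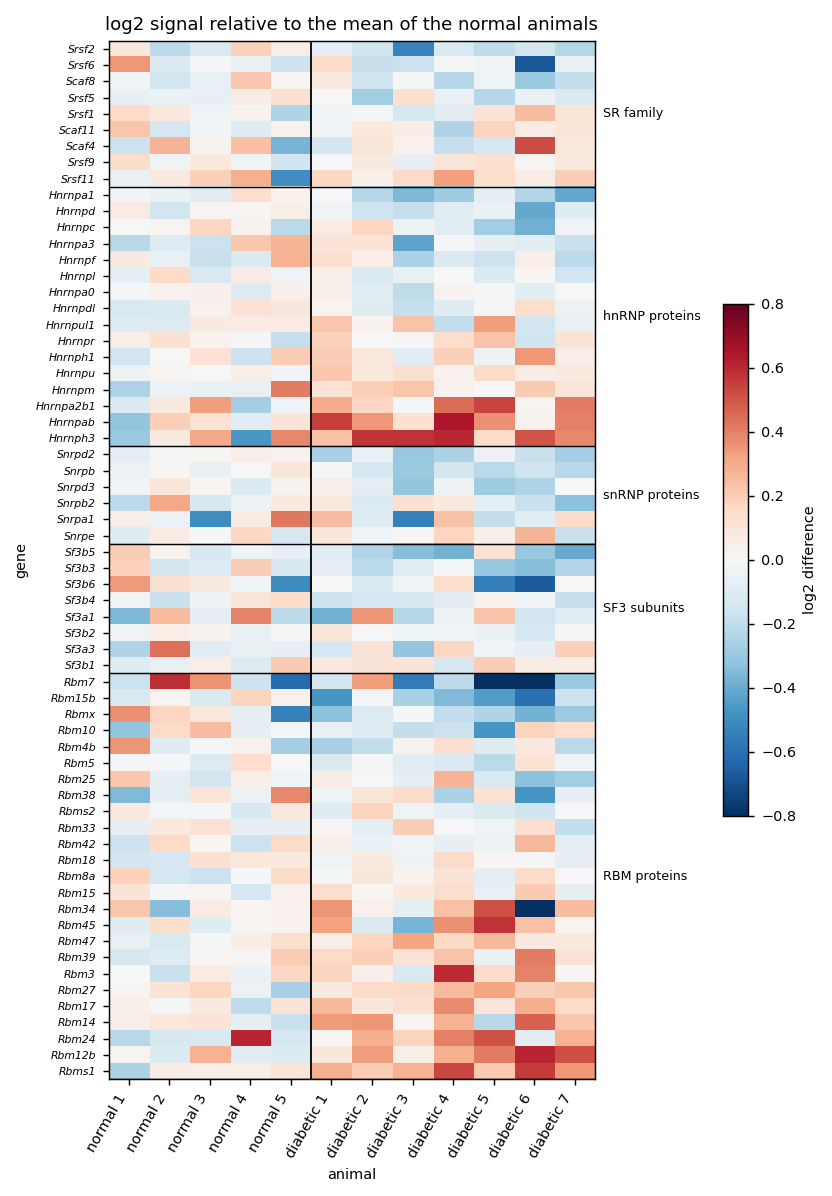
Log2 signal of the 64 tested genes (vertical axis, grouped by role) in each of the 12 animals (horizontal axis), relative to the mean of the normal animals, with red higher and blue lower. The median over the 64 genes lies between -0.04 and 0.05 in every animal, and diabetic animal 6 holds the highest value of 11 genes and the lowest of 13.

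Under the filter were 4 members, which were not tested. The signal of Scaf1 was 31.2 ± 7.57 (SD, n = 5) in normal and 35.6 ± 17.4 (SD, n = 7) in diabetic lung. For Snrpa, a U1 particle protein, it was 165 ± 62.5 and 147 ± 53.0, for Snrpn 75.1 ± 50.8 and 108 ± 28.4, and for Srsf10 108 ± 10.8 and 124 ± 25.7. The ranges of the groups overlapped in all 4.

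Other genes of RNA processing whose symbols lack these prefixes were taken from a list of 177, of which 135 were on the array and all 135 passed the filter. In limma 0 passed an adjusted p of 0.05, and the median difference was 0.02. At an unadjusted p under 0.05, 12 genes were higher and 11 were lower (17.0% together). Of all probe sets 16.4% had such a p, 7.75% higher and 8.68% lower. Groups did not overlap for 1 higher gene, Zfp36l2, and 1 lower gene, Dhx38. The shares of all probe sets were 0.924% higher and 1.11% lower, so these counts are near the background. Zfp36l2, which speeds the decay of AU-rich transcripts, was 1183.4, 1646.4, 1673.9, 1428.4 and 1546.8 in normal animals and 1754.0, 1812.2 and 2128.4 at the lowest, median and highest in diabetic animals. All diabetic animals were above the normal animals, and the difference was 0.34 (SE 0.09, limma adjusted p = 0.0975). The helicase gene Dhx38 was 607.3, 524.0, 501.0, 499.0 and 572.1 in normal animals and 404.3, 449.0 and 483.7 at the lowest, median and highest in diabetic animals. All diabetic animals were below the normal animals for Dhx38, with a difference of -0.28 (adjusted p = 0.116).

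The catalytic-stage factor Prpf19 differed by -0.37 (adjusted p = 0.106), Lsm4 of the U6 ring by -0.33 (adjusted p = 0.109), the stress granule protein G3bp2 by 0.26 (adjusted p = 0.116) and the polypyrimidine-binding Ptbp3 by 0.44 (adjusted p = 0.133). The 22 genes of splice site recognition and SR-related proteins held 5 higher and 0 lower below an unadjusted p of 0.05, namely Ptbp3, Luc7l2, Tra2a, Luc7l3 and Pnn, with a median of 0.06, where 7.75% of all probe sets were higher and 8.68% lower at that p. Of the 37 factors of the tri-snRNP, catalysis and helicases 1 was higher and 4 were lower. The 37 hnRNP-like and other binding proteins had 5 higher and 3 lower, and the 9 genes of exon junction and decay 1 and 0. For 3′ end processing and for snRNP assembly it was 0 higher and 2 lower of 11 genes each. All these counts are to be read against the same shares of all probe sets. Cirbp, a cold-inducible relative of Rbm3, was 215.4, 190.5, 199.3, 318.6 and 245.5 in normal animals and 154.5, 164.2 and 203.6 at the lowest, median and highest in diabetic animals. Normal animal 4 was the highest and the ranges overlapped, with a difference of -0.43 (adjusted p = 0.145). The SR protein kinases Clk1 and Clk4 differed by 0.18 (adjusted p = 0.388) and 0.15 (adjusted p = 0.560), and 7 of the 8 SR kinases lay above 0, with 0 of the 8 at an unadjusted p under 0.05, while 52.8% of all probe sets lay below 0.

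Of the measures of the samples, the sum of the fibroblast markers and the GAPDH ratio moved with the groups. The summed signal of 8 of 8 fibroblast markers was 26187 to 27890 in normal and 11775 to 22753 in diabetic lung, which do not overlap. At an unadjusted p under 0.05 these were 5 lower markers, among them Col1a1, and 1 higher, Pdgfra. The sum of the macrophage markers (2 of 5 measured) was 1685 to 2242 in normal and 1850 to 3147 in diabetic lung, which overlap. Those of the endothelium, club cell, neutrophil, red cell and cycling cell markers overlapped as well. The sums overlapped for type II cells (6 of 7), with 69485 to 84155 in normal and 64758 to 88309 in diabetic lung, for type I cells (4 of 5), with 24415 to 27313 and 20204 to 26047, and for lymphocytes (5 of 7), with 1542 to 1913 and 787 to 1992. At an unadjusted p under 0.05 the type I markers Aqp5 (-0.52) and Ager (-0.24) were lower and Hopx (0.23) was higher. At that p were also Csf1r (0.29) of the macrophage and Cd79b (-0.82) of the lymphocyte markers, and 0 of the 6 type II markers. The GAPDH ratio named above, a measure of RNA integrity, averaged 1.32 ± 0.0778 among the 5 normal arrays and 1.15 ± 0.0710 (SD) among the 7 diabetic arrays, with p = 0.00505 by a two-sided exact permutation test. For beta-actin the corresponding values were 2.06 ± 0.437 and 2.08 ± 0.372, with p = 0.920 by the same exact permutation test. No marker summed was at 0 in all animals, and the part of the marker lists in the results was not tested. Below an unadjusted p of 0.05 the fit with the GAPDH covariate had 4 higher and 6 lower members, against 7 and 6 without it. Over all probe sets 8.98% were higher and 10.3% lower with the covariate, against 7.75% and 8.68% without it.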

How the data were processed

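The authors computed 1 MAS 5.0 signal per probe set and array, and the deposited values are an intensity on a linear scale. The scaling target is not given in the sources used here, but the mean without the lowest and highest 2% was 500.1 in every array. No arrays were pooled. The signals were transformed to log2, with 1 value at or below 0 set to 0.1. Of 15866 probe sets other than controls, the 40% of lowest mean log2 signal, under 170.0, were left out. Diabetic and normal arrays were tested by limma 3.58.1 under R 4.3.3, using lmFit and a trended eBayes and two-sided p-values, with Benjamini-Hochberg adjustment over 9520 probe sets. The fit was tested on simulated data whose changes were larger than the difference of any member. How often it would find smaller changes was not tested. Members and lists were chosen with earlier results of these data known. Named are Scaf11, members with an unadjusted p under 0.05 or groups that do not overlap, the 3 of smallest p and the 1 nearest 0 in each role, members whose probe sets differ in sign with 1 at that p, the 6 other genes of smallest p, Cirbp, Clk1 and Clk4. Rbm3, Rbm7, Sf3b1, Snrpe, Rbm39, Hnrnpu, Hnrnpa3, Srsf6 and the Luc7l and Tra2a genes were named after their values were seen. Alternatives covered the scaling, filter, variance model, covariate, probe sets and each animal. Gene names came from the platform annotation, updated by Entrez ID where possible, and promoters are those of RefSeq. BAMarray, the authors' test, was not used here. The number of arrays limits the precision. Python 3.11.15 with matplotlib 3.10.9 drew the figures.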

Additional observations from a re-analysis of the deposited data

Results flagged for a closer look

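Of 50 groups of samples examined, 3 held a sample far from the others, where chance gives about 1 in 20. For Rbms1, normal animal 1 at 522.7 lay apart from the others at 642.4 to 664.4, its gap taking 0.845 of the range of the group. For Sf3a3, normal animal 2 at 630.7 lay apart from 393.2 to 448.0, with a gap of 0.769 of the range. For Srsf2, diabetic animal 3 at 2252.2 lay apart from 2783.2 to 3116.0, with a gap of 0.615 of the range. Probe sets that were not the brightest of their gene, and so in no count of members, had an unadjusted p under 0.05 in 4 genes, with log2 differences of 0.48 for Scaf11, 0.56 for Sf3a1, 0.38 for Srsf1 and 0.35 for Hnrnpa2b1, all higher in diabetic than in normal lung. The members had 85 kept probe sets, of which 64 were the brightest of their gene. Over all probe sets tested 16.4% had such a p, and 7.75% were higher with it.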

How the results depend on the processing

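Under all 26 settings 0 members passed an adjusted p of 0.05, and the median difference of the members moved by less than its replicate SD of 0.0287. Of 645 comparisons of a named gene with an alternative 0 passed that threshold and 619 kept their direction, while 26 turned it in 8 genes. Hnrnpa2b1 turned with the GAPDH ratio as a covariate, at -0.14, where the cause was not tested, and its adjusted p ranged from 0.153 to 0.627. The other 7 genes had an unadjusted p of at least 0.05 to begin with. Of these, Hnrnpdl (0.063) and Sf3a1 (0.051) turned with the same covariate, Rbm33 (-0.062), Snrpa1 (0.11) and Srsf1 (-0.0096) with array weights, Sf3a1 (0.26) with the mean of its probe sets, Sf3a3 (0.0086) with quantile normalization, and Srsf1 (-0.032) with the replicate block and without diabetic animals 6 and 7. Leaving out 1 animal gave -0.026 to 0.040 for Rbm33, -0.0017 to 0.086 for Scaf11, -0.13 to 0.056 for Sf3a1, -0.071 to 0.10 for Sf3a3, -0.16 to 0.067 for Snrpa1 and -0.034 to 0.066 for Srsf1. For the 13 members with an unadjusted p under 0.05, that p was lost in 56 of 336 comparisons, most often for Rbm27, which kept it in 11 of 25 settings. Members higher at an unadjusted p under 0.05 numbered 4 in place of 7 with the GAPDH covariate. In that fit 8.98% of all probe sets were higher, against 7.75% without the covariate. Leaving out 1 animal gave 4 to 8 members higher, the 4 without diabetic animal 4, and 4 to 8 lower in place of 6. Without diabetic animal 4, 7.07% of all probe sets were higher. Without normal animal 5, 8 members were higher and 8 lower, against 7.37% and 7.67% of all probe sets. The 4 lower were found without diabetic animal 7 or normal animal 1, where 8.56% and 7.24% of all probe sets were lower. Members whose groups do not overlap numbered 1 to 3 higher in place of 1 (2 without diabetic 4 or normal 3, 3 without normal 4 or 5) and 0 to 1 lower in place of 0 (1 without diabetic 1, diabetic 2, normal 1 or normal 2). Leaving out an animal can only keep or raise such a count, for any probe set. The shares of all probe sets whose groups do not overlap, 0.924% higher and 1.11% lower with all animals, were not computed for fewer animals. With the replicate number as a block 3 were higher and 3 lower, against 6.49% and 6.79% of all probe sets. Diabetic animals 6 and 7 have no same-numbered normal animal, so they do not enter the difference in that fit. Leaving both out without a block gave 5 higher and 5 lower, against 7.38% and 7.82% of all probe sets. The replicate numbers do not pair the samples. Same-numbered animals had correlations of -0.12 to 0.04 in their deviations, and 1 of 5 was closest to its own number. The second probe set of Scaf11, an alternative chosen after seeing the data, passed an adjusted p of 0.05 in 7 of 24 settings: array weights (0.49), the lowest 60% left out (0.48), a pseudocount of 64 (0.42), quantile normalization (0.49), robust variance (0.48), without diabetic 5 (0.51) and without diabetic 6 (0.51).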

Other observations

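Probe sets that name more than 1 gene were outside the rule, and 10 of them carry a symbol with one of its prefixes. That of the SR protein gene Srsf3, a small SR protein that also acts in RNA export, was 2049.6, 1870.5, 2074.2, 2101.7 and 2231.6 in normal animals 1 to 5. In diabetic animals it was 1633.3, 1874.1 and 2029.9 at the lowest, median and highest. The ranges overlapped, and the log2 difference was -0.18 (SE 0.07, limma adjusted p = 0.238). A second probe set of Srsf3 differed by -0.15 (adjusted p = 0.612). The probe sets of Hnrnpk, a poly-C-binding protein, differed by -0.07 (adjusted p = 0.626) and 0.02 (adjusted p = 0.924). The probe set of Rbm4 and Rbm4b differed by 0.22 (adjusted p = 0.325), those of Snurf and Snrpn by 0.25 (adjusted p = 0.695) and 0.24 (adjusted p = 0.385), and those of Snrpc, Snrpg and Rbmxl1 by 0.10, 0.01 and -0.03. Each of these sets can bind the transcripts of more than 1 gene, so the gene behind its signal is uncertain.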
